A study of Mus musculus with 24 samples.

Results

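The wild-type liver comparison sets 2 libraries taken at ZT16 against 2 taken at ZT04, which is 4 of the 24 libraries of a mouse liver mRNA sequencing series. Zeitgeber time (ZT) counts hours from lights on, so the samples lie 12 h apart. The libraries were chosen by genotype and time label alone: wild-type mice (Hlf+/+/Dbp+/+/Tef+/+) at ZT16 and at ZT04, and, for a second comparison, PAR bZip knockout mice (Hlf-/-/Dbp-/-/Tef-/-) at the same 2 times, with 2 libraries each. All mice ate ad libitum (AL) and were 12 to 16 weeks old, and whole liver was taken in every group. Every group holds 1 library with the letter I in its name and 1 with the letter P, called set I and set P here. What the letters stand for is not in the labels, and neither is whether paired replicates are separate animals. The p-values therefore measure sample spread only, and this spread may be technical. Wherever a pair of values is given for a time, the set I value stands first.

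In the circadian clock of mammalian cells, CLOCK or NPAS2 pairs with BMAL1 (gene Arntl) and binds E-boxes in DNA, which switches on the Per and Cry genes, whose proteins then repress their own activators. The nuclear receptors REV-ERBα and REV-ERBβ (Nr1d1, Nr1d2) repress Arntl, and ROR receptors such as Rora activate it from the same DNA element. In liver this clock and the daily rhythm of feeding together drive rhythms in lipid, glucose, bile acid and drug metabolism. Mice are nocturnal and take most of their food in the dark.

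Promoters of genes with large changes are shown for the E-box, CACGTG, which both strands read alike. The windows run from 250 bases before to 50 bases after the RefSeq transcript start on GRCm38.p6, the E-box in capitals. Cry1 encodes a core repressor of the clock, Ciart a repressor that binds at E-box sites, and Fgf21 a hormone of the fasting liver. The windows lie at chr10:85185005-85185304 for Cry1, chr3:95882179-95882478 for Ciart and chr7:45615441-45615740 for Fgf21, all on the minus strand.
Cry1: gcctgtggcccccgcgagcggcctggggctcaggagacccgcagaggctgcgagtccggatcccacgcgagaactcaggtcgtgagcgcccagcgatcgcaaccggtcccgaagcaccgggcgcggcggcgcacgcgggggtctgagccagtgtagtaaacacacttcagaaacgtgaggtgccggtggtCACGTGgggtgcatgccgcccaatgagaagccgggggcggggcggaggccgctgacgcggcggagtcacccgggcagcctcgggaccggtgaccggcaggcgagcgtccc
Ciart: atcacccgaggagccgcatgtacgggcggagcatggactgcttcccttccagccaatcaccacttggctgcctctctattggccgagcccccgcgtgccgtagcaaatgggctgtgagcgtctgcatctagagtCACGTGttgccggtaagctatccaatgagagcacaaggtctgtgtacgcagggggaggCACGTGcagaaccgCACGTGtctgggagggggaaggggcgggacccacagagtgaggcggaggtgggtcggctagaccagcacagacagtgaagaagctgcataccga
Fgf21: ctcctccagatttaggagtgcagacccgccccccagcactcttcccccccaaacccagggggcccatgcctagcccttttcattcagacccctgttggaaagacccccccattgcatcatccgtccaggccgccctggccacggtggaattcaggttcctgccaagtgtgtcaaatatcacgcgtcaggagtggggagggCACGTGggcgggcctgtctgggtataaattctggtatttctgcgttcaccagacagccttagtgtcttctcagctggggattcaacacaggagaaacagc

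The E-box of Cry1 starts 60 bases before the transcript start, that of Fgf21 starts 50 bases before it, and the Ciart window holds 3, which start 116, 58 and 44 bases before it. The promoters of 31 genes were looked up, the clock and PAR bZip genes and other named genes. RefSeq windows were found for 25 of them, as 31 windows, and 7 genes had an E-box: Per1, Cry1, Ciart, Bhlhe41, Tef, Fgf21 and Pik3ap1. Of all 32851 promoters in the table, 7.15% hold CACGTG. The REV-ERB/ROR element, searched on both strands, was found in Arntl alone among these genes, starting 28 bases after a start, and in 0.606% of all promoters. The D-box TTATGTAA, the site class that PAR bZip factors bind, was found at 2 places in Per3 and in 0.938% of all promoters. The D-box TTACGTAA matched 0 of the 25 genes and 0.119% of all promoters. The cAMP response element TGACGTCA matched Hlf (1.79% of all promoters) and the sterol regulatory element TCACNCCAC matched Cyp2a5 (1.24%). The heat shock element matched 0 of the 25 genes and 0.603% of all promoters. These are matches of letters in 1 window per start and say nothing of binding.

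Values are given as CPM, counts scaled by edgeR to a common library size. The libraries held 17902069 and 16083967 counts at ZT16, against 18230705 and 14613001 counts at ZT04. Both set I libraries followed the GC content of genes to a like degree. The correlation across genes between a library's deviation from the median library and GC content was 0.613 and −0.218 at ZT16, against 0.571 and −0.273 at ZT04. The set P library at ZT04 stood apart in ribosomal RNA. The ribosomal RNA gene CT010467.1 had 21005 CPM there, against 112 to 726 CPM in the other 11 wild-type libraries. Lars2, a gene with a ribosomal RNA-like stretch, had 8686 CPM in it, against 65.8 to 492 CPM in the other 11. The small nuclear RNA Rn7sk had 66.9 CPM in it, against 0.16 to 1.81 CPM. Results are therefore also given without this library.

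The liver label was checked against marker genes. The 15 measured hepatocyte markers, albumin among them, summed to 109700 and 107300 CPM at ZT16, against 106600 and 112000 CPM at ZT04. Markers of Kupffer cells summed to 697 and 724 CPM at ZT16, against 1003 and 755 CPM at ZT04. Neutrophil markers summed to 18.2 and 14.6 CPM at ZT16, against 135 and 48.3 CPM at ZT04. Of the 6 neutrophil markers tested, 4 were lower at ZT16 without overlap and 0 higher. Of all genes tested, 11.2% were lower without overlap and 12.2% higher. The log2 changes of the 6 markers ran from −3.19 to 0.49, with a median of −0.51. Lcn2, which hepatocytes also make, had 123 and 39.4 CPM at ZT04, and the other 5 tested markers summed to 6.75 and 7.89 CPM at ZT16, against 11.4 and 8.61 CPM at ZT04. The neutrophil marker Ly6g was at 0 in all 4 libraries. Adipocyte markers summed to 27 and 11.5 CPM at ZT16, against 16.3 and 9.23 CPM at ZT04. In whole liver, fewer cells of a type and less RNA per cell cannot be told apart.

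Between ZT16 and ZT04, 23 of 14535 genes tested passed, 0.158% of them, with 17 higher at ZT16 (0.117%) and 6 lower (0.0413%). The rises included Thrsp, a lipogenic gene, Wee1, a cell-cycle kinase under clock control, the clock gene Cry1, the glycogen-targeting subunit Ppp1r3b, the detoxifying enzymes Cyp2a5 and Ces1d and the deubiquitinase Usp2. The falls included the clock repressor Nr1d1 and the hormone gene Fgf21. The test was edgeR's quasi-likelihood F-test on all 12 wild-type libraries, with set letter as a block and Benjamini-Hochberg adjustment at 0.05. Log2 changes are ZT16 minus ZT04 with their SE. At an unadjusted p under 0.05, 725 of all genes tested were higher (4.99%) and 621 lower (4.27%), the background for the unadjusted counts of the lists. Without the set letter in the fit, 5 genes were higher and 0 lower, with 354 lower at an unadjusted p under 0.05.

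A fit of all 24 libraries, in which the knockout libraries only add to the estimate of the spread, called 278 of 15090 genes (1.84%), 147 higher at ZT16 (0.974%) and 131 lower (0.868%). These included 21 of the 23 genes. Up to the comparison of genotypes below, wild-type log2 changes and their SE come from the fit of 12 libraries. This holds also where an adjusted p with 24 libraries stands beside them. Of the 23, 22 had both ZT16 libraries on one side of both ZT04 libraries, a separation seen in 23.4% of all genes tested. A change of 2-fold or more within both sets was seen for 164 genes higher at ZT16 (1.13%) and 144 lower (0.991%), and for 17 of the 17 called rises and 5 of the 6 called falls. The counts changed when 1 library was left out, in fits where the lone library of a time is assumed to vary like the libraries of the other times. Without the set I library at ZT16, 3 genes were higher and 0 lower. Without the set P library at ZT16, 1 was higher and 0 lower, and without the set I library at ZT04, 3 were higher and 11 lower. Without the set P library at ZT04, the one with high ribosomal RNA, 6 were higher and 1 lower, and 5 of the 23 calls were kept. Thrsp was called in all 4 of these fits, Wee1 and Gm45819 in 3, Gm15611 in 2 and Ppp1r3b in 1, and 18 of the 23 genes in 0.

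**Figure D1:**
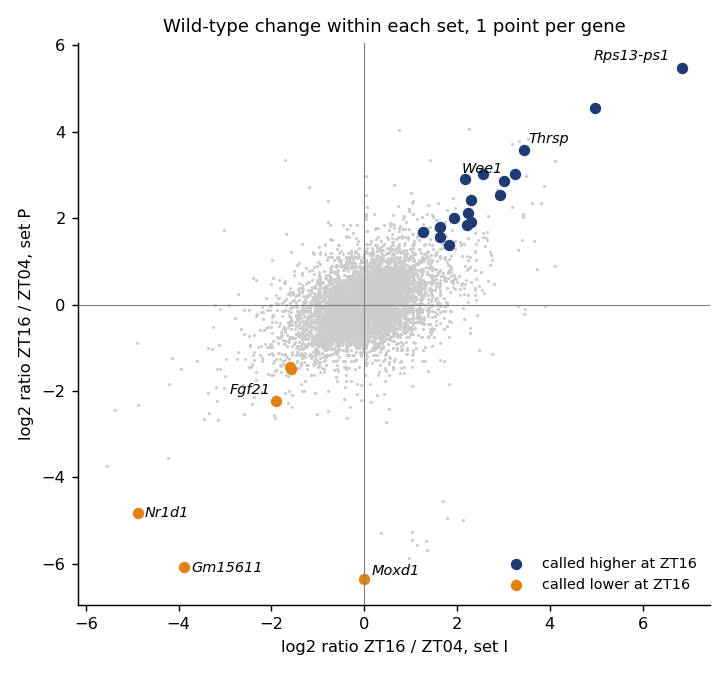
Log2 ratio of ZT16 over ZT04 for every gene tested, in set I (horizontal axis) and in set P (vertical axis), 1 point per gene, with called genes in blue (higher at ZT16) and orange (lower). The 17 called rises lie at the upper right and 5 of the 6 called falls at the lower left, while Moxd1 lies on the vertical axis because set I had no counts of it.

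Among the clock activators described here, none passed with the 12 wild-type libraries, and the median log2 change of all genes tested was −0.01. Npas2, which can stand in for CLOCK, had 1.87 and 0.667 CPM at ZT16, against 10.5 and 3.72 CPM at ZT04. Its log2 change was −2.45 ± 0.51, which did not pass with the 12 wild-type libraries (edgeR adjusted p = 0.1582) and passed with all 24 (edgeR adjusted p = 0.02507). Arntl had 34.2 and 22.6 CPM at ZT16, against 35.7 and 20.2 CPM at ZT04, with a log2 change of 0.03 ± 0.27. Over the 6 times its mean was lowest at ZT08 and highest at ZT24.

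Clock and Rora differed far more between the sets than between the times. Clock, the partner of BMAL1, had 8.20 and 76.1 CPM at ZT16, against 8.86 and 89.9 CPM at ZT04. Rora, a ROR receptor that activates Arntl, had 13.9 and 85.8 CPM at ZT16, against 15.7 and 80.8 CPM at ZT04. Within sets, the log2 ratio of Clock was −0.11 in set I and −0.24 in set P, and that of Rora was −0.18 in set I and 0.09 in set P. The SE of their log2 changes was 0.79 for Clock and 0.63 for Rora. Changes several times their SE could still be missed here. Per2, with a log2 change of 3.20 ± 0.47, did not pass with the 12 wild-type libraries (edgeR adjusted p = 0.0505).

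Among the clock repressors, 1 of 10 measured genes rose (Cry1), 1 fell (Nr1d1) and 8 did not pass, with a median log2 change of 1.35. With all 24 libraries, 4 were higher and 1 lower. Cry1, on chromosome 10 at 85131700 to 85185064 of mm10, had 82.5 and 53.3 CPM at ZT16, against 17.7 and 14.7 CPM at ZT04. Both ZT16 libraries lay above both ZT04 libraries, and the log2 change was 2.05 ± 0.22 (edgeR adjusted p = 0.01986). Nr1d1, on chromosome 11 at 98767932 to 98775333, had 2.65 and 2.67 CPM at ZT16, against 81.4 and 78.9 CPM at ZT04. The 2 sets gave nearly the same values at each time, 30.1 times lower at ZT16 by the ratio of means. Its log2 change was −4.91 ± 0.62 (edgeR adjusted p = 0.02443). Its paralog Nr1d2 had 5.31 and 53.1 CPM at ZT16, against 19.4 and 91.3 CPM at ZT04, and its log2 change of −1.17 ± 0.54 did not pass. Its ratio was lower at ZT16 within both sets, −1.84 in set I and −0.78 in set P on the log2 scale.

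For Per1, Per2 and Per3, core repressors of the clock, both ZT16 libraries lay above both ZT04 libraries, and none of the genes passed with the 12 wild-type libraries. Per2 had 85.8 and 88.5 CPM at ZT16, against 5.74 and 13.1 CPM at ZT04. Its log2 change of 3.20 ± 0.47 missed the threshold with 12 libraries (edgeR adjusted p = 0.0505) and passed with 24 (edgeR adjusted p = 0.0007251). Per3 had 21.9 and 35.5 CPM at ZT16, against 1.97 and 12.5 CPM at ZT04, a log2 change of 2.09 ± 0.60. Per1 had 15.5 and 19.0 CPM at ZT16, against 3.24 and 8.67 CPM at ZT04, a log2 change of 1.54 ± 0.50. Neither Per1 nor Per3 passed with 24 libraries (edgeR adjusted p of 0.08246 and 0.07339).

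Ciart had 3.86 and 5.10 CPM at ZT16, against 0.521 and 1.72 CPM at ZT04, and its log2 change of 2.03 ± 0.47 did not pass with 12 libraries and passed with all 24 (edgeR adjusted p = 0.0227). Bhlhe40, which encodes DEC1, an E-box-binding repressor, had 108 and 98.3 CPM at ZT16, against 34.9 and 58.3 CPM at ZT04. It too passed with all 24 libraries and not with 12 (log2 change 1.16 ± 0.30 with 12, edgeR adjusted p = 0.04705 with 24). Cry2 had 73.4 and 46.5 CPM at ZT16, against 46.9 and 30.9 CPM at ZT04, so the groups overlapped, and its log2 change was 0.62 ± 0.21. Bhlhe41 stayed under 2 CPM in all 4 libraries, with a log2 change of −0.48 ± 0.48.

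**Figure D2:**
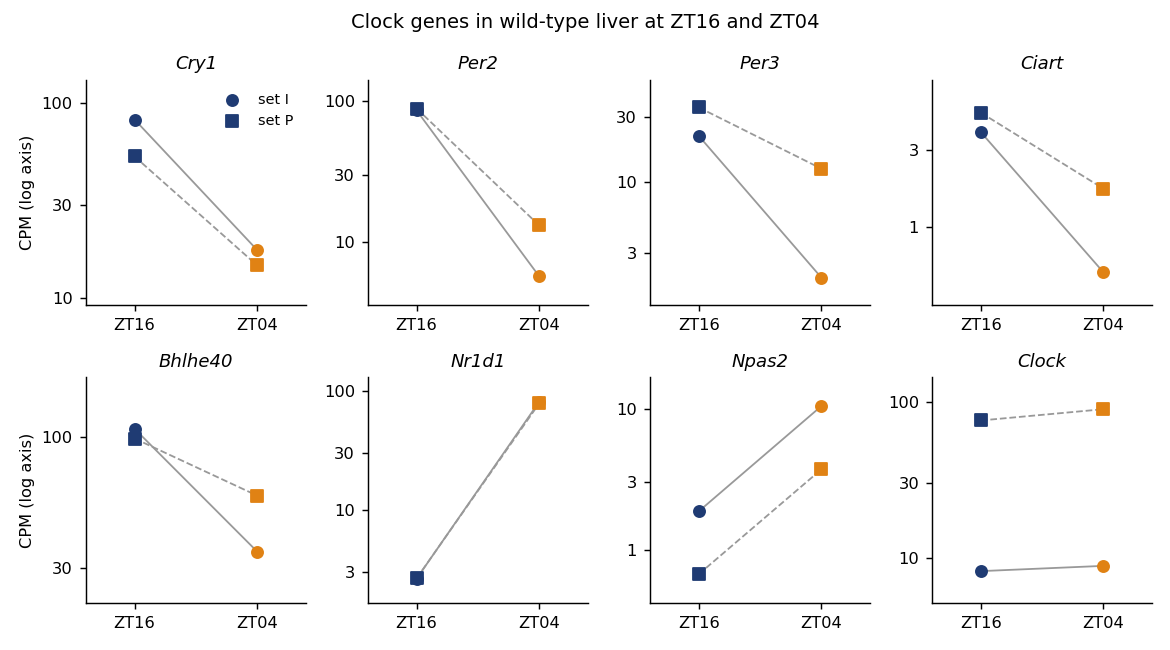
CPM on a log axis of 8 clock genes in the 2 wild-type libraries at ZT16 (blue) and the 2 at ZT04 (orange), with circles for set I, squares for set P and a line joining the libraries of a set. Cry1, Per2, Per3, Ciart and Bhlhe40 were higher at ZT16 in both sets, Nr1d1 and Npas2 were lower, and Clock differed by set and hardly by time.

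The PAR bZip factors DBP, TEF and HLF are clock outputs that bind D-boxes, and NFIL3 represses from the same sites. Of the 4 genes, 0 passed with 12 libraries, 2 were under an unadjusted p of 0.05 in edgeR, and 0 passed with 24. Tef had 225 and 198 CPM at ZT16, against 102 and 102 CPM at ZT04, a log2 change of 1.05 ± 0.24 (edgeR adjusted p = 0.1851). Hlf had 88.0 and 84.7 CPM at ZT16, against 44.6 and 52.9 CPM at ZT04, a log2 change of 0.83 ± 0.15 (edgeR adjusted p = 0.1078). The groups did not overlap for either gene. Dbp had 2.11 and 2.97 CPM at ZT16, against 2.84 and 11.5 CPM at ZT04, with a log2 change of −1.43 ± 0.63. Both times are far from its highest mean, at ZT08, where it had 53.1 and 49.6 CPM. Nfil3 had 56.8 and 32.2 CPM at ZT16, against 44.7 and 30.9 CPM at ZT04, with a log2 change of 0.23 ± 0.32.

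Among genes of fatty acid and triglyceride synthesis, 1 of 25 rose, Thrsp, and the median log2 change was 0.32. Thrsp, a nuclear protein tied to lipogenesis, on chromosome 7 at 97412938 to 97417730, had 880.2 and 629.7 CPM at ZT16, against 81.3 and 52.4 CPM at ZT04. It was 11.3 times higher by the ratio of means, with a log2 change of 3.51 ± 0.20 (edgeR adjusted p = 0.0007388). Dgat2, which makes triglyceride from diglyceride, passed with all 24 libraries and not with 12. It had 926 and 611 CPM at ZT16, against 598 and 405 CPM at ZT04 (log2 change 0.61 ± 0.18 with 12, edgeR adjusted p = 0.03053 with 24). The lists and the genes named for passing with all 24 libraries were picked with values in view, so their counts are a description.

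Among genes of fatty acid oxidation and ketogenesis, 1 of 39 fell, Fgf21, 0 rose, and the median log2 change was −0.13. At an unadjusted p under 0.05 in edgeR, 4 were higher and 10 lower. The log2 changes ran from −2.64 to 1.835. A change of 2-fold or more within both sets was seen for 1 gene higher and 6 lower. With 24 libraries 0 were higher and 3 lower. Fgf21, on chromosome 7 at 45613886 to 45615490, had 4.16 and 2.12 CPM at ZT16, against 15.9 and 10.3 CPM at ZT04. The groups did not overlap, and its log2 change was −2.10 ± 0.25 (edgeR adjusted p = 0.01986, against 0.05031 with 24 libraries). The 3 genes lower with 24 libraries and not called with 12 are all PPARα targets. Plin2, which coats lipid droplets, had 344 and 187 CPM at ZT16, against 845 and 425 CPM at ZT04 (log2 change −1.24 ± 0.18, edgeR adjusted p = 0.00161 with 24 libraries). Vnn1, a pantetheinase, had 18.1 and 14 CPM at ZT16, against 46.2 and 32.9 CPM at ZT04 (−1.29 ± 0.22, edgeR adjusted p = 0.007857 with 24). Cpt1a, which brings fatty acids into mitochondria, had 397 and 315 CPM at ZT16, against 713 and 505 CPM at ZT04 (−0.76 ± 0.20, edgeR adjusted p = 0.03592 with 24). All 3 had no overlap between the times. The fatty acid hydroxylases Cyp4a10 and Cyp4a14 were over 2-fold lower in both sets and did not pass in either fit. Cyp4a14 had 66.0 and 249 CPM at ZT16, against 1216 and 896 CPM at ZT04, with a log2 change of −2.64 ± 0.86. Reads of these related Cyp4a genes may have been split between copies.

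Cholesterol synthesis and uptake had 0 of 25 genes called with 12 libraries (3 higher and 1 lower at an unadjusted p under 0.05 in edgeR) and a median log2 change of 0.17. Of 23 bile acid genes 0 were called (4 higher and 3 lower at an unadjusted p under 0.05), and the median log2 change was 0.08. With 24 libraries, the bile acid receptor gene Nr1h4 was called higher (0.60 ± 0.14 with 12, edgeR adjusted p = 0.02519 with 24). The canalicular lipid transporters Abcg8 (−1.17 ± 0.26 with 12) and Abcb4 (−0.95 ± 0.25 with 12) were called lower, with edgeR adjusted p of 0.02834 and 0.03363 with 24. Cyp7a1, the rate-limiting enzyme of bile acid synthesis, had 155 and 406 CPM at ZT16, against 15.4 and 169 CPM at ZT04. Its log2 ratio within sets was 3.32 in set I and 1.26 in set P, and it did not pass in either fit (edgeR adjusted p = 0.454 with 12 libraries).

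Glycogen metabolism had 1 of 17 genes higher, Ppp1r3b, 0 lower, and a median log2 change of −0.09. Ppp1r3b, which brings protein phosphatase to glycogen in liver, had 660.4 and 727 CPM at ZT16, against 134 and 192 CPM at ZT04. The groups were far apart, with a log2 change of 2.09 ± 0.22 (edgeR adjusted p = 0.01933). Of 24 genes of gluconeogenesis and insulin regulation, 0 were called with 12 libraries (4 higher and 1 lower at an unadjusted p under 0.05 in edgeR), and the median log2 change was 0.03. The tyrosine aminotransferase gene Tat passed with 24, at 1959.9 and 1771 CPM at ZT16, against 668 and 1007 CPM at ZT04 (1.15 ± 0.28 with 12, edgeR adjusted p = 0.03694 with 24). Igfbp1, an insulin-repressed binding protein of IGF, had 22.4 and 16.9 CPM at ZT16, against 103 and 42.1 CPM at ZT04, and did not pass in either fit (−1.82 ± 0.36, edgeR adjusted p = 0.1196 with 12).

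Of 26 measured drug-metabolising P450 genes and their regulators, 1 rose, Cyp2a5, 0 fell, and the median log2 change was 0.24. Cyp2a5, which oxidises coumarin and nicotine, had 955 and 738 CPM at ZT16, against 306 and 213 CPM at ZT04, a log2 change of 1.72 ± 0.21 (edgeR adjusted p = 0.01986). Its value is uncertain where reads were shared with its near-identical paralog. Ces1d, a carboxylesterase that hydrolyses lipids and drugs, had 2553 and 1607 CPM at ZT16, against 665 and 399 CPM at ZT04 (1.97 ± 0.26, edgeR adjusted p = 0.03154). Ces1d also has close paralogs. Of 16 genes of NAD synthesis and use, 1 rose, the nicotinamide riboside kinase gene Nmrk1, 0 fell, and the median log2 change was 0.12. Nmrk1 had 41.4 and 53.0 CPM at ZT16, against 17 and 16.5 CPM at ZT04 (1.49 ± 0.17, edgeR adjusted p = 0.01986). Nampt, the rate-limiting enzyme of NAD salvage, had 38.3 and 141 CPM at ZT16, against 16.2 and 66.9 CPM at ZT04, over 2-fold higher within each set and not called (1.14 ± 0.51).

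Of 25 cell cycle genes 1 rose, Wee1, 0 fell, and the median log2 change was 0.17. Wee1, a kinase that holds back entry into mitosis, had 16.6 and 22.1 CPM at ZT16, against 1.97 and 2.96 CPM at ZT04 (2.97 ± 0.24, edgeR adjusted p = 0.005041). Other called genes stood outside the lists. Usp2, a deubiquitinase with a strong daily rhythm in liver, had 35 and 38.3 CPM at ZT16, against 3.59 and 4.61 CPM at ZT04 (3.16 ± 0.38, edgeR adjusted p = 0.01986). Col27a1, a fibrillar collagen gene, had 120.0 and 114 CPM at ZT16, against 15.6 and 19.5 CPM at ZT04 (2.75 ± 0.32, edgeR adjusted p = 0.01986). Alpl, tissue-nonspecific alkaline phosphatase, had 53.8 and 29.8 CPM at ZT16, against 15.1 and 11.4 CPM at ZT04 (1.62 ± 0.18, edgeR adjusted p = 0.01986). Lingo4, a leucine-rich repeat membrane protein gene, had 8.38 and 5.82 CPM at ZT16, against 1.33 and 0.62 CPM at ZT04 (2.86 ± 0.39, edgeR adjusted p = 0.03755). Pik3ap1, a signalling adaptor of phosphoinositide 3-kinase, fell, with 32.1 and 26.1 CPM at ZT16, against 95.9 and 73.5 CPM at ZT04 (−1.54 ± 0.18, edgeR adjusted p = 0.01986).

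Other called genes were named after their values were seen. Rad51c, a DNA repair gene, had 2.05 and 2.18 CPM at ZT16, against 0.348 and 0.413 CPM at ZT04, and rose (2.47, edgeR adjusted p = 0.04017). Gm45819, A930033H14Rik and the processed pseudogene Gm8941 rose too, and 2010003K11Rik and the noncoding gene Gm15611 fell. Gm45819 lies on chromosome 7 at 110119990 to 110121740, just before Wee1, which starts at 110122046 on the same strand. The calls of Gm45819 and Wee1 may therefore not be separate evidence. Rps13-ps1, a processed pseudogene of a ribosomal protein gene, had 13 and 4.97 CPM at ZT16, against 0 and 0 CPM at ZT04. It was at least 95.4-fold higher at ZT16, taking 3 counts over the ZT04 group as the limit that a count of 0 allows. Reads of this pseudogene and of Rps13 may be shared, so its value is uncertain. Moxd1, a monooxygenase-like gene, was called lower on 1 library: it had 0 and 0.607 CPM at ZT16, against 0 and 59.0 CPM at ZT04. That library is the one with high ribosomal RNA, and the values at the 2 times overlapped. Other set P libraries of the wild type had 0.057 CPM at ZT08, 13.9 at ZT12, 9.73 at ZT20 and 15.9 at ZT24. In the knockout Moxd1 was also lower at ZT16, with 0.110 and 1.90 CPM, against 264 and 205 CPM at ZT04. Its knockout log2 change was −9.04 ± 1.94 (edgeR adjusted p = 0.02914 in the fit of all 24 libraries).

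Each called gene was followed over the 6 times of the wild type. The 17 genes that rose had their highest mean at ZT12 in 8 cases, at ZT16 in 6, at ZT20 in 2 and at ZT08 in 1, and their lowest at ZT04 in 13. Of the 6 that fell, 4 had their highest mean at ZT04. Thrsp ran through 81.3 and 52.4 CPM at ZT04, 421 and 389 at ZT08, 986 and 567 at ZT12, 880.2 and 629.7 at ZT16, 506 and 351 at ZT20, and 121 and 79.9 at ZT24. Its highest 4 values were thus those of ZT12 and ZT16. Fgf21 was highest at ZT04, and its ZT12 values of 10.5 and 4.11 CPM overlapped those of ZT04. Rps13-ps1 followed no such course, with 15.8 and 5.46 CPM at ZT08, 13 and 4.97 at ZT16 and 15.3 and 3.17 at ZT20, and at most 0.113 CPM at ZT04, ZT12 and ZT24.

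**Figure D3:**
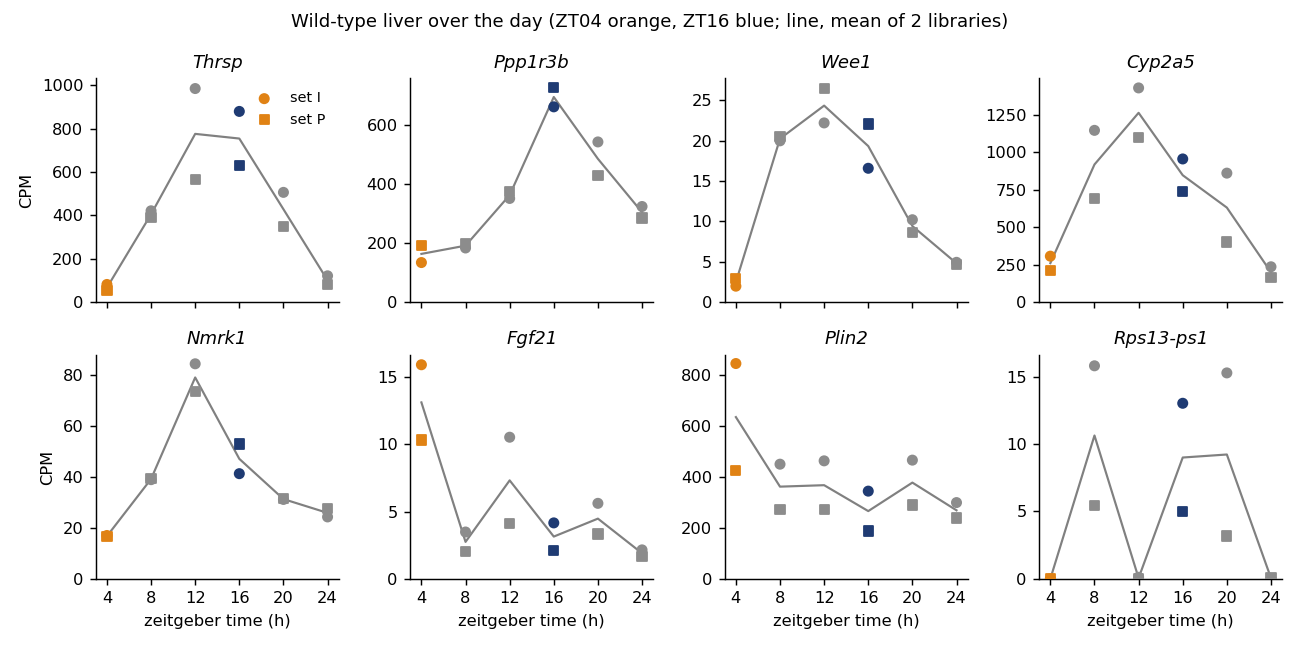
CPM over zeitgeber time of 8 genes in wild-type liver, with circles for set I, squares for set P, a line through the mean of 2 libraries, ZT04 in orange and ZT16 in blue. Thrsp, Ppp1r3b, Wee1, Cyp2a5 and Nmrk1 were low at ZT04 and peaked at ZT12 or ZT16, Fgf21 and Plin2 were highest at ZT04, and Rps13-ps1 was present at 3 times and near 0 at the other 3.

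The heat shock and cold-inducible genes had a median log2 change of 0.56. Of 21 measured, 0 passed with 12 libraries, 8 were higher and 0 lower at an unadjusted p under 0.05 in edgeR, and 5 were higher with 24 libraries. Hspa8, the constitutive HSP70, had 1482 and 1309 CPM at ZT16, against 722 and 795 CPM at ZT04 (0.87 ± 0.18, edgeR adjusted p = 0.01246 with 24). Hspb1, a small heat shock protein gene, had 9.04 and 8.86 CPM at ZT16, against 2.95 and 2.20 CPM at ZT04 (1.80 ± 0.35, edgeR adjusted p = 0.04953 with 24). Serpinh1, the collagen chaperone, Fkbp4, a co-chaperone of HSP90, and Hspe1, the mitochondrial co-chaperonin, were the others, with log2 changes of 0.83, 0.98 and 0.63. Hsp90aa1 had 41.9 and 295 CPM at ZT16, against 17.5 and 142 CPM at ZT04, so it was over 2-fold higher within each set, and it did not pass (1.12 ± 0.76).

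The amino acid stress response, the ATF4 target genes, had a median log2 change of −0.25. Of 15 measured genes, 0 passed with 12 libraries (1 higher and 4 lower at an unadjusted p under 0.05 in edgeR), and 1 was higher and 3 lower with 24. Chac1, which degrades glutathione, had 1.21 and 0.728 CPM at ZT16, against 11.6 and 5.23 CPM at ZT04 (−3.08 ± 0.48, edgeR adjusted p = 0.0141 with 24). Trib3, a pseudokinase, had 4.64 and 3.03 CPM at ZT16, against 14.7 and 9.71 CPM at ZT04 (−1.66 ± 0.31, edgeR adjusted p = 0.02507 with 24). The factor gene Atf5 had 296 and 185 CPM at ZT16, against 611 and 376 CPM at ZT04 (−1.04 ± 0.22, edgeR adjusted p = 0.007311 with 24). Ddit4, an mTORC1 inhibitor also induced by glucocorticoids, went the other way, at 16.4 and 12.7 CPM at ZT16, against 3.59 and 4.75 CPM at ZT04 (1.76 ± 0.33, edgeR adjusted p = 0.007553 with 24).

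Autophagy and lysosome genes had a median of −0.20, with 0 of 33 called with 12 libraries (1 higher and 6 lower at an unadjusted p under 0.05 in edgeR) and 2 lower with 24. The autophagy kinase gene Ulk1 had 53.7 and 48.2 CPM at ZT16, against 196 and 89.4 CPM at ZT04 (−1.41 ± 0.34, edgeR adjusted p = 0.03968 with 24). Gabarapl1, of the autophagosome membrane, had 246 and 196 CPM at ZT16, against 652 and 401 CPM at ZT04 (−1.23 ± 0.33, edgeR adjusted p = 0.04797 with 24). Endoplasmic reticulum chaperone and unfolded protein response genes had 0 of 24 called (4 higher and 0 lower at an unadjusted p under 0.05) and a median of 0.30.

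Of the glucocorticoid-induced genes, with a median of −0.06, 0 of 20 passed with 12 libraries (5 higher and 6 lower at an unadjusted p under 0.05 in edgeR), and with 24 libraries Tsc22d3 and Tat were higher and Mt1 lower. Tsc22d3, known as GILZ, had 241 and 198 CPM at ZT16, against 65.3 and 90.9 CPM at ZT04 (1.48 ± 0.28, edgeR adjusted p = 0.008194 with 24). The metallothionein gene Mt1 had 4.28 and 4.73 CPM at ZT16, against 205 and 64.9 CPM at ZT04 (−4.78 ± 0.90, edgeR adjusted p = 0.01797 with 24). Lcn2, an acute-phase protein gene, had 11.2 and 6.19 CPM at ZT16, against 123 and 39.4 CPM at ZT04, and did not pass (−3.19 ± 0.73). As given above, some other neutrophil markers were also lower at ZT16, and their part in the Lcn2 value was not tested.

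In the growth hormone and IGF axis, with a median of −0.10, 0 of 15 genes passed (2 higher and 4 lower at an unadjusted p under 0.05 in edgeR), and 0 with 24 libraries. The STAT5 target genes Cish and Socs2 had values over 2-fold lower in both sets. Cish had 3.80 and 2.55 CPM at ZT16, against 40.3 and 10.9 CPM at ZT04 (−2.95 ± 0.98), and Socs2 had 1.93 and 8.61 CPM at ZT16, against 31.3 and 24.5 CPM at ZT04 (−2.53 ± 0.85). Of 40 amino acid breakdown and urea cycle genes 0 passed with 12 libraries (6 higher and 5 lower at an unadjusted p under 0.05), with a median of 0.10. With 24 libraries the urea cycle gene Asl was called higher, and the histidine-degrading Amdhd1 and the transsulfuration gene Cbs lower. Their log2 changes with 12 libraries were 1.06 ± 0.26 for Asl, −0.94 ± 0.20 for Amdhd1 and −0.93 ± 0.28 for Cbs.

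Ribosome biogenesis (40 genes, median −0.02) and cytosolic ribosomal proteins (78 genes, median 0.24) had 0 calls in either fit and 0 genes at an unadjusted p under 0.05 with 12 libraries in edgeR. Iron handling (19 genes, median 0.02) had 0 calls and 1 gene lower at an unadjusted p under 0.05. Immediate early genes (18 measured, median −0.15) likewise had 0 calls with 12 libraries and 1 lower at an unadjusted p under 0.05. With 24 libraries Junb was called lower (−1.10 ± 0.19 with 12, edgeR adjusted p = 0.03651 with 24). The cell type marker lists had 0 calls with 12 libraries, and their members under an unadjusted p of 0.05 in edgeR numbered from 0 to 4 a list. With 24 libraries the fibrinogen genes Fga, Fgb and Fgg, clotting genes counted among the hepatocyte markers, were lower at ZT16. Fga had 4510.0 and 3428 CPM at ZT16, against 8522 and 6483 CPM at ZT04 (−0.92 ± 0.23, edgeR adjusted p = 0.01553 with 24). The adipocyte marker Cfd was called higher with 24 libraries, at 4.82 and 0.971 CPM at ZT16, against 0.348 and 0.138 CPM at ZT04. Its log2 change was 3.41 ± 0.74 with 12 (edgeR adjusted p = 0.04693 with 24). The adipocyte marker sum above was also higher at ZT16 in both sets, but it includes Cfd and is no separate evidence. Of the 4 adipocyte markers tested, 2 were higher at ZT16 without overlap and 0 lower, against 12.2% and 11.2% of all genes tested. The log2 changes of the 4 ran from −0.26 to 4.05, with a median of 1.86.

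**Figure D4:**
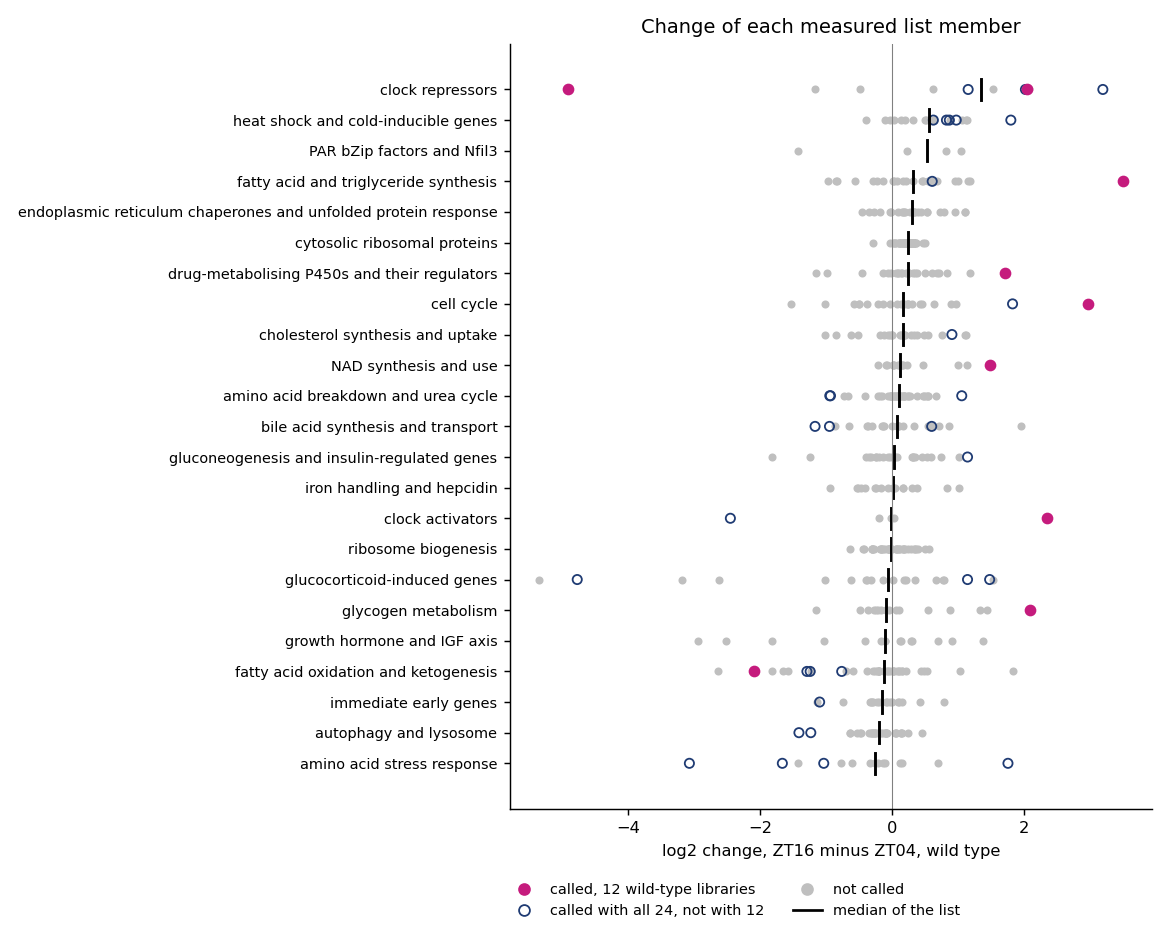
Log2 change, ZT16 minus ZT04 in wild type (horizontal axis), of every measured member of 23 gene lists, sorted by median (black bar), with genes called with 12 wild-type libraries in magenta, those called with all 24 and not with 12 as open circles and others in grey. Clock repressors have the highest median at 1.35, heat shock genes follow at 0.56, and the amino acid stress response has the lowest at −0.25.

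The same 12 h comparison in the knockout, which shares no libraries with the wild type, addresses the same change in mice without DBP, TEF and HLF. The labels were checked on the deleted genes: Dbp was at 0 in all 4 knockout libraries. Tef had 16.0 and 14.3 CPM at ZT16, against 5.93 and 11.2 CPM at ZT04 in the knockout, and Hlf had 2.25 and 2.70 CPM at ZT16, against 0.49 and 0.614 CPM at ZT04. These Tef and Hlf values are all below those of the wild type given above. Between ZT16 and ZT04 the knockout had 370 of 15090 genes called (2.45%), 188 higher at ZT16 (1.25%) and 182 lower (1.21%). Of the 23 wild-type genes, 22 had the same sign in the knockout, 16 were called there in that direction and 0 in the other. Some of the same-sign changes were small in the knockout, such as 0.16 for Rps13-ps1, −0.09 for 2010003K11Rik and 0.29 for Nmrk1. The share with the same sign over all genes was not counted. For the genotype difference, 10 of the 23 had an unadjusted p under 0.05 in edgeR, against 1135 of all 15090 genes. The 23 were picked by their wild-type change, so these counts are a description.

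The test of the difference, wild type minus knockout, called 1 of 15090 genes (0.00663%) in the edgeR fit of all 24 libraries, with 1135 at an unadjusted p under 0.05. The 1 gene was Rps13-ps1, which in the knockout had 10.05 and 12.6 CPM at ZT16, against 10.6 and 9.52 CPM at ZT04 (edgeR adjusted p = 0.001211). The clock genes Cry1 and Nr1d1 changed in the same direction in both genotypes. For Cry1 the log2 change in this fit was 2.03 in wild type and 2.76 in knockout, and for Nr1d1 −4.93 and −5.39. The difference was −0.73 for Cry1 and 0.46 for Nr1d1, neither of which passed.

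Among genes picked for small p with the larger change in wild type, Vnn1 had a log2 change of −1.31 ± 0.22 in wild type and 0.60 ± 0.21 in knockout. The difference of −1.91 ± 0.31 did not pass (edgeR adjusted p = 0.08942). Plin2 had −1.26 ± 0.16 in wild type and 0.12 ± 0.16 in knockout, and Nmrk1 had 1.47 ± 0.14 in wild type and 0.29 ± 0.14 in knockout (edgeR adjusted p = 0.09372 for both differences). In the knockout Plin2 had 318 and 257 CPM at ZT16, against 253 and 278 CPM at ZT04, and Nmrk1 had 18.3 and 19.7 CPM at ZT16, against 15.3 and 15.7 CPM at ZT04. Cyp17a1, a steroid hydroxylase, Selenbp2, a selenium-binding protein gene, and Ripor2 differed by −3.20, 1.89 and 2.79, each with an edgeR adjusted p of 0.1579. Fgf21 had −2.12 ± 0.51 in wild type and 0.52 ± 0.55 in knockout, where it stayed between 1.72 and 3.22 CPM. The difference of −2.64 ± 0.74 did not pass (edgeR adjusted p = 0.2849).

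Among those with the larger change in knockout, Cyp4a14 had a log2 change of −2.63 ± 1.02 in wild type and 5.28 ± 1.15 in knockout. In the knockout it had 599 and 255 CPM at ZT16, against 10.5 and 14.2 CPM at ZT04, so the times were ordered the other way than in wild type. Elovl3, which elongates very long fatty acids, had 0.52 ± 0.37 in wild type and −2.11 ± 0.38 in knockout. Slc16a5, a monocarboxylate transporter gene, had 0.95 ± 0.36 in wild type and 3.78 ± 0.41 in knockout. Meg3, an imprinted noncoding RNA, had 0.80 ± 0.38 in wild type and −1.9 ± 0.34 in knockout. Cela1, an elastase gene, and Acnat2, a peroxisomal acyltransferase gene, changed by −0.03 and −0.20 in wild type and by −1.73 and 2.30 in knockout. The edgeR adjusted p of each of these 6 differences was 0.1579.

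**Figure D5:**
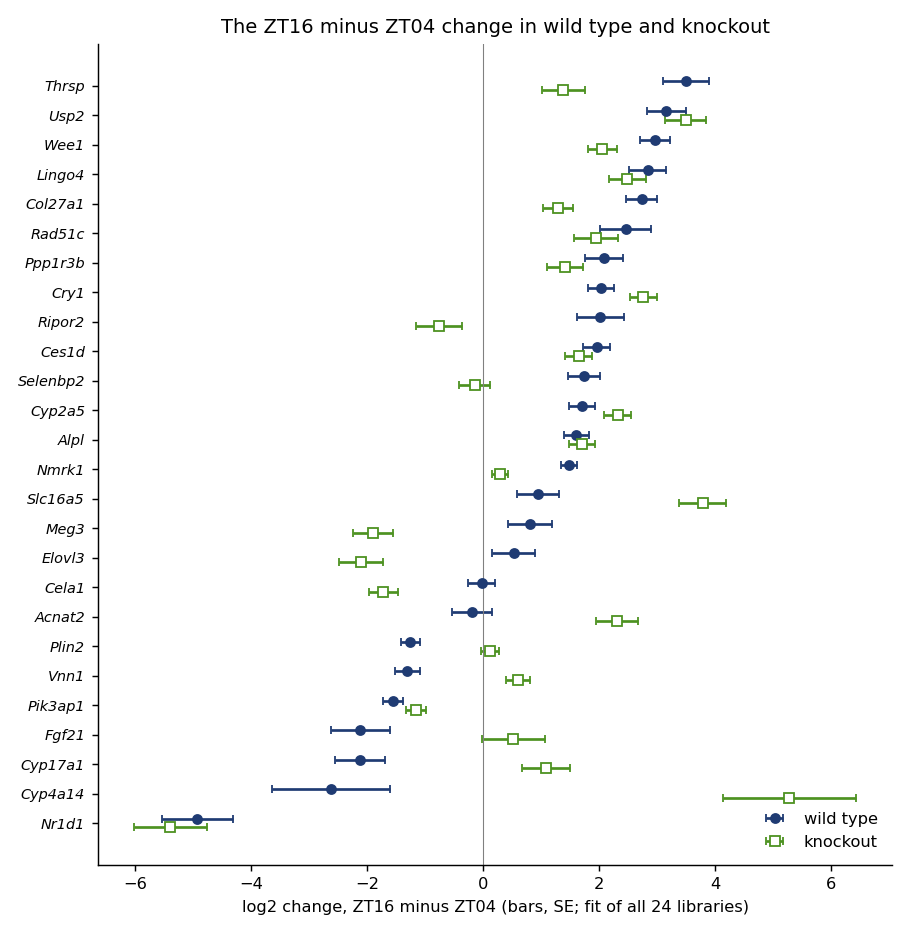
Log2 change, ZT16 minus ZT04, with SE bars from the fit of all 24 libraries, of called and named genes in wild type (blue circles) and knockout (green squares). Rps13-ps1 and Moxd1, which were at 0 in a set or a time, are not drawn. Cry1, Usp2 and Nr1d1 lie on the same side of 0 in both genotypes, while Fgf21, Plin2, Vnn1, Cyp17a1 and Cyp4a14 lie below 0 in wild type and above 0 in knockout.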

How the data were processed

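Liver mRNA was sequenced from TruSeq Stranded mRNA libraries, per the labels' protocols. The authors deposited raw read counts per Ensembl gene for 24 libraries, and the submitters' processing notes list STAR 2.4.0i and mm10. How reads were counted, and with which strand setting, is not given in the sources used here, so overlapping or antisense genes may share counts. Wild-type totals ran from 14613001 to 19288322 counts.

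Here, 14535 of 54532 genes passed filterByExpr (minimum count 10). edgeR 4.0.16 (R 4.3.3) fitted 6 time means over 12 wild-type libraries with set letter as a block (5 residual degrees of freedom) and TMM scaling, and 12 group means over 24 libraries with set within genotype as a block. An adjusted p under 0.05 was a call. CPM are counts over TMM-scaled library sizes, and the SE is the size of the log2 change over the square root of F. The letters pair the libraries: over all 15 pairs of wild-type times, deviations of set I from set P correlated across genes at 0.357 to 0.852, above the limit of 0.1. Libraries of a group differed beyond sampling noise (chi-square per degree of freedom of 106 at ZT16 and 169 at ZT04). The test was tested on simulated data. DESeq2 1.42.0 and the other alternatives are in the closing section.

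The text names all clock and PAR bZip genes, called genes whose times do not overlap and whose mean log2 CPM is 1 or more (up to 12 rises and 12 falls), called list members, and 6 genes a side for the genotype difference, passing over clone names. Other names were chosen after their values were seen. The genotypes, the 35 lists (23 of functions, 12 of cell type markers) and the rule were chosen with earlier results of these data known. Symbols and coordinates are GENCODE M21 (mm10), and promoters are RefSeq (GRCm38.p6). Some genes that the rule names have results that are left out of this text.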

Additional observations from a re-analysis of the deposited data

Results flagged for a closer look

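Rps13-ps1 had a change between ZT16 and ZT04 that differed between the genotypes by the test of the difference itself. Its fitted log2 change in wild type minus that in knockout was 10.25 (edgeR adjusted p = 0.001211). This fitted value depends on a prior count, because both wild-type libraries at ZT04 were at 0, and it is no bound. Wild-type libraries had 13 and 4.97 CPM at ZT16, against 0 and 0 CPM at ZT04, and knockout libraries had 10.05 and 12.6 CPM at ZT16, against 10.6 and 9.52 CPM at ZT04.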

How the results depend on the processing

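With 17 genes higher and 6 lower at ZT16 in the 12 wild-type libraries with the set block, the tallies were 5 and 0 without the block (416 and 354 at an unadjusted p under 0.05), 147 and 131 with all 24 libraries, 198 and 234 with the 4 libraries alone and the block (1 residual degree of freedom), and 0 and 0 with the 4 alone and no block (211 and 207 at an unadjusted p under 0.05). They were 60 and 40 without a filter on low counts, 59 and 43 with the trend in GC content and length removed per library, 10 and 2 against a 1.5-fold change, and 121 and 92 in DESeq2. RLE size factors gave 19 and 6, a filter at 1 CPM gave 20 and 8, and leaving out ribosomal and small RNA genes and Lars2, an alternative chosen after seeing the data, gave 21 and 8. Leaving out 1 library gave 1 to 6 higher and 0 to 11 lower, and the cause was not tested. The genotype difference had 1 gene, 0 without the block (679 at an unadjusted p under 0.05), 3 with the GC and length trend removed, and 1 to 18 with a library left out. Of 73 single genes, the called ones kept their sign under all alternatives run. Rora was near 0 and turned to 0.0465 without the block, 0.0177 with the 4 libraries alone and no block and 0.0119 with the GC and length trend removed. Leaving out 1 library moved Rora from −0.50 to 0.34, Clock from −0.89 to 0.59, Arntl from −0.31 to 0.46, Nfil3 from −0.20 to 0.56 and Bhlhe41 from −1.17 to 0.12, none of which was called. With 2 libraries a time and 5 residual degrees of freedom, the changes in Clock and Nampt were not called. Changes of their size could be missed in genes with as large an SE.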
